A study of Homo sapiens with 54 samples.

Results

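*EGFR*, *ERBB2*, *ERBB3*, *MET*, *AXL*, *IGF1R*, *FGFR1*, *PDGFRA*, *PDGFRB* and *DDR1* encode receptor tyrosine kinases, the membrane proteins through which growth factors and, for DDR1, collagen reach the inside of a cell. These 10 genes were chosen by name, and they are 10 of the 55906 gene rows in the RNA-seq tables of 4 human cancer cell lines. Their levels were compared between the lines, and within each line between cells that had lost or gained the splicing factors TRA2A and TRA2B and their own control cells. *DDR1* was the receptor with the most changes. All of its libraries from cells with *TRA2A* guides lay below their controls in 8 of 8 comparisons, 7 of which passed the test. By comparison 0.213% to 43.2% of all genes were called, and the share of all genes without overlap was not counted. In each lung line these comparisons share their control, and several of the calls were lost with a library left out.

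A receptor tyrosine kinase binds its ligand outside the cell, pairs with a second receptor and phosphorylates tyrosines on its own tail, to which adaptor proteins such as GRB2 and SHC1 attach and start RAS-ERK and PI3K-AKT signaling. EGFR and MET are known as drivers of lung adenocarcinoma, EGFR and PDGFRA are commonly altered in glioma, and AXL is known for its place in mesenchymal and drug-tolerant cells. ERBB3 has little kinase activity of its own and signals in pairs with other ERBB receptors, most of all ERBB2. TRA2A and TRA2B are paralogs related to the SR proteins, which bind GAA-rich elements in exons and promote inclusion of the exon in the mature RNA.

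The study had 54 libraries in 18 groups of 3. A549 and NCI-H23, both lines of lung adenocarcinoma, stably expressed Zim3-dCas9, a Cas9 that cannot cut DNA and carries a repressor domain (CRISPRi), and received guides against *TRA2A* (*TRA2A* KD), *TRA2B* (*TRA2B* KD), the pair of them (*TRA2A/B* DKD) or neither (Control KD, with control guides). Their RNA was taken on day 5. LN229 and LN319, both glioma lines, received cutting Cas9 with their guides and were collected on day 7. Cells carrying a luciferase construct (Luc) were made into Control KO, *TRA2A* KO and *TRA2B* KO, whereas cells overexpressing *TRA2B* from a cDNA (TRA2B-OE) were made into Control KO and *TRA2A* KO only. The sources used here name no single-cell clones and no separate cultures for the replicates, so the p-values measure the spread between these libraries, which may be technical. Levels are the deposited TPM, a relative abundance within a library that is corrected for transcript length. Changes are log2 fold changes from limma on log2(TPM + 0.1) after scaling between libraries, and a change was called when its p, adjusted over all genes of the comparison by the Benjamini-Hochberg method, was under 0.05. With 3 libraries against 3 an exact permutation test of a single gene cannot go below p = 0.1.

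The targeted genes were checked first. *TRA2A* stood at 9.56% of Control KD in A549 and at 6.54% in NCI-H23 upon *TRA2A* KD, and *TRA2B* at 9.68% and 10.6% upon *TRA2B* KD. In the *TRA2A/B* DKD, *TRA2A* stood at 13.9% and 20.5% and *TRA2B* at 16.3% and 25.2%. Cutting by Cas9 need not remove a transcript, and upon *TRA2A* KO *TRA2A* stood at 62.9% of control in LN229 Luc, 87.2% in LN229 TRA2B-OE (libraries overlapped, adjusted p = 0.0680), 33.2% in LN319 Luc and 52.8% in LN319 TRA2B-OE. Upon *TRA2B* KO *TRA2B* stood at 66.0% in LN229 and 35.1% in LN319, and in TRA2B-OE at 374% and 873% of Luc. *TRA2A* RNA also fell without *TRA2A* guides, to 73.4% and 85.2% of Luc control in TRA2B-OE cells of LN229 and LN319 (adjusted p = 0.00750 and 0.0458) and to 84.6% upon *TRA2B* KO in LN319 (adjusted p = 0.00377).

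The lines were checked for markers of their labelled tissue. The lung lines had summed epithelial markers (*KRT8*, *KRT18*, *KRT19*, *EPCAM*, *CDH1* and *CLDN7*) of 4116 to 6393 TPM (A549) and 1371 to 2264 TPM (NCI-H23), nearly all of it keratins, whereas the lung lineage markers *NKX2-1*, *NAPSA*, *SFTPB* and *SFTPC* summed to at most 6.60 and 2.46 TPM, with *NKX2-1* listed at 0 in all A549 controls. The glial markers *GFAP*, *OLIG2* and *S100B* summed to 68.0 to 1052 TPM in LN229, mostly *S100B*, and to only 1.19 to 4.87 TPM in LN319. The control of LN319, labelled as a glioma line, expressed *CDH1* at 123 ± 7.65 TPM (SD, n = 3) and *NKX2-1* at 7.98 ± 1.10 TPM. *EPCAM* (0.394 TPM), *CLDN7* (2.40 TPM) and *NAPSA* (0.868 TPM) were low there, and the epithelial markers of LN319 summed to 288 to 399 TPM. The mesenchymal and glial markers *VIM*, *CDH2*, *NES*, *SOX2* and *CD44* summed to 4776 to 6019 TPM in LN319 and 3577 to 4833 TPM in LN229. In A549 they summed to 1169.6 to 1572 TPM and in NCI-H23 to 1190.1 to 1801 TPM. The blood markers summed to at most 1.92 TPM in any library, and the endothelial markers to at most 1.72 TPM. Of the A549 libraries, replicate 3 of Control KD stood apart: its median correlation with the other libraries of the line was 0.835, against 0.871 for the next lowest, and its 10 receptors summed to 927 TPM, against 395 to 559 TPM in the other 11. Replicate 1 of LN229 Luc Control KO also lay apart from its group for *ERBB3*, *EGFR* and *MET*, and so did replicate 1 of TRA2B-OE Control KO in LN229, with *ERBB3* at 236 TPM against 125 and 114 TPM, *EGFR* at 14.8 TPM against 24.3 and 23.2 TPM and *MET* at 46.4 TPM against 63.1 and 62.8 TPM. The share of mitochondrial transcripts was 18.3 to 20.6% in LN319 *TRA2B* KO against 12.1 to 12.8% in its control, which also lay below Luc *TRA2A* KO (13.2 to 15%) and TRA2B-OE Control KO (13.5 to 14.7%). It was 17.8 to 19.3% in NCI-H23 *TRA2B* KD against 23.1 to 31.9%, and its part in the results was not tested.

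All 10 genes lie on GRCh38 as protein-coding genes, and their coordinates are those of Gencode v44. *DDR1* spans chr6:30876421-30900156 on the plus strand, and *MET* spans chr7:116672196-116798377, also on the plus strand. *ERBB3* lies at chr12:56076799-56103505 and *PDGFRA* at chr4:54229280-54298245. The hexamer GAAGAA, the kind of GAA-rich element TRA2 proteins bind, was counted in the coding sequence of the canonical transcript of each gene. It was found 6 times in *PDGFRA* (1.84 per kb of coding sequence), 4 times in *ERBB3* (0.994 per kb), 2 times each in *EGFR*, *IGF1R* and *PDGFRB*, once each in *ERBB2*, *MET* and *AXL*, and 0 times in *FGFR1* and *DDR1*. Over 20046 protein-coding genes the median was 0.838 per kb and 65% held at least 1 match, so 8 of the 10 receptors lay below the median density. The 60 coding bases with the most matches are shown for 3 receptors that changed in the glioma lines, 5′ to 3′ on the coding strand with GAAGAA in capitals, from the reference and not from these cells. They lie in exon 28 of 28 of *ERBB3* (chr12:56101540-56101599), exon 4 of 21 of *MET* (chr7:116740024-116740083) and exon 3 of 23 of *PDGFRA* (chr4:54261211-54261270), and a match is a description of these letters and not a site shown to be bound.
ERBB3: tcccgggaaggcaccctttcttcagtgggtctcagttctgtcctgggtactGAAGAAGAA
MET: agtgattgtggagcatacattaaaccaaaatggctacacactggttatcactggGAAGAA
PDGFRA: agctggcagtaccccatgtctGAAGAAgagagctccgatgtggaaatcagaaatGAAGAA

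In control cells each line had its own set of leading receptors. A549 was led by *AXL* at 208 ± 116 TPM (SD, n = 3), *MET* at 105 ± 37.9 TPM, *FGFR1* at 103 ± 11.2 TPM and *EGFR* at 71.5 ± 27.1 TPM, and each of these overlapped its neighbor in the order. The wide SDs came from replicate 3, in which *AXL* stood at 342 TPM against 149 and 134 TPM, and *IGF1R* at 109.9 TPM against 21.6 and 34.2 TPM. In NCI-H23 *AXL* (55.3 ± 8.09 TPM) and *MET* (52.4 ± 2.54 TPM) overlapped and led, and *DDR1* followed at 39.0 ± 0.714 TPM, apart from its neighbors on either side. LN229 was led by *ERBB3* at 199 ± 87.8 TPM and *AXL* at 182 ± 29.3 TPM, which overlapped, and then *DDR1* at 106 ± 2.12 TPM. LN319 was led by *PDGFRA* at 179 ± 14.8 TPM and *DDR1* at 176 ± 15.1 TPM, which overlapped, followed by *ERBB2* at 80.1 ± 4.38 TPM.

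**Figure D1:**
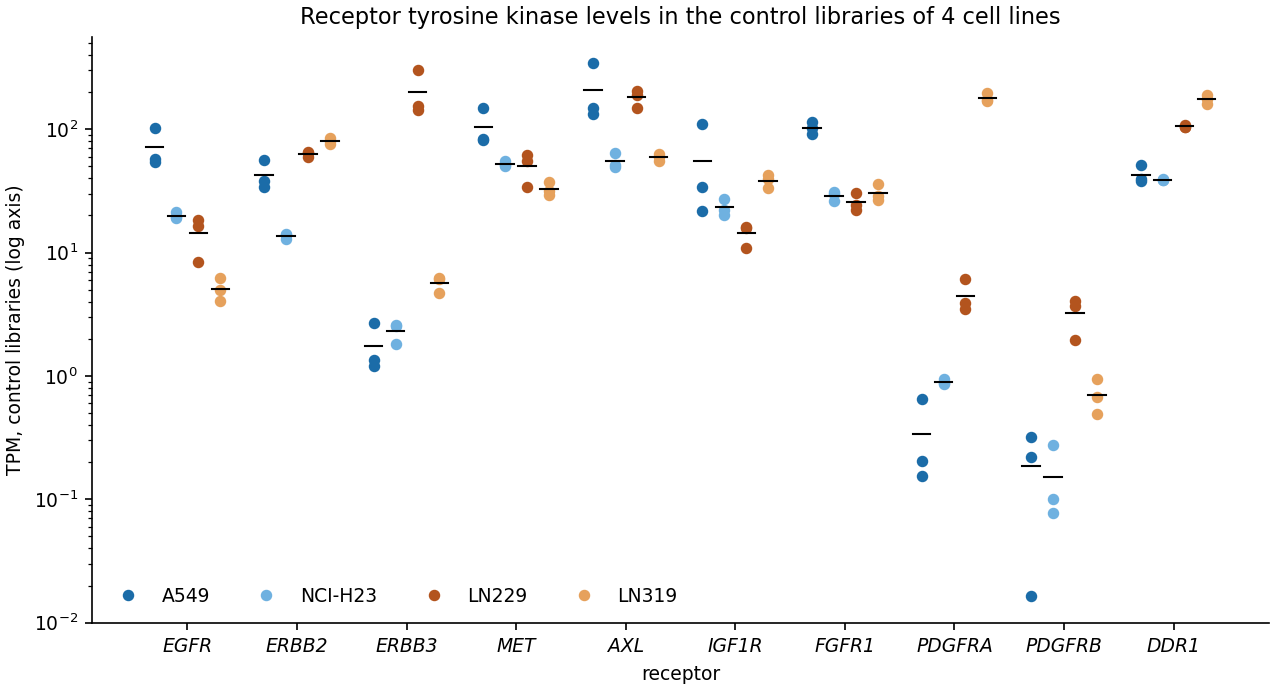
TPM of the 10 receptors (x axis) in the control libraries of 4 cell lines, on a log axis; points are single libraries (3 per line, Control KD or Luc Control KO) and bars their means. *PDGFRA* and *ERBB3* spread the most between lines, from under 1 TPM to 179 TPM and from 1.75 to 199 TPM.

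Across lines, *PDGFRA* and *ERBB3* differed the most. *PDGFRA*, the alpha receptor for platelet-derived growth factor, stood at 179 TPM in LN319 and at 0.338 ± 0.275 TPM in A549, a level too low and too variable between libraries (0.156 to 0.655 TPM) for a fold, and *ERBB3* stood 114-fold higher in LN229 than in A549. *PDGFRB*, the beta receptor, reached only 3.23 ± 1.11 TPM in its highest line, LN229, and lay under 1 TPM in the control libraries of the other 3. *EGFR* fell in the order A549, NCI-H23, LN229 (14.4 ± 5.32 TPM) and LN319 (5.08 ± 1.05 TPM), with no overlap between neighbors and a ratio of 14.1 between the ends. *ERBB2* had the order LN319, LN229 (63.1 ± 2.84 TPM), A549 (42.8 ± 11.7 TPM) and NCI-H23 (13.6 ± 0.722 TPM), also without overlap. The other 5 receptors varied less, by 3.21-fold for *MET* to 4.51-fold for *DDR1* between the highest and lowest line. *DDR1* was higher in both glioma lines than in both lung lines, while A549 and NCI-H23 overlapped for it. For *MET*, LN229 overlapped both NCI-H23 and LN319, and for *FGFR1* NCI-H23, LN229 and LN319 overlapped. For *AXL*, LN319 overlapped NCI-H23 and A549 overlapped LN229. For *IGF1R*, A549 overlapped both LN319 and NCI-H23. Each line was quantified in a table of its own, so these levels are a description with no test.

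Each perturbation was then compared with its own control. Of 127 receptor values tested in 14 comparisons, 25 were called, 20 of them lower and 5 higher than control. Of the 10 receptors, 9 were called at least once. Among all genes 0.196% to 43.2% were called, by comparison, so these totals are no result about the receptors as a group. Calls among all genes went in both directions, for example 1352 up and 1399 down in LN319 Luc *TRA2A* KO. *PDGFRA* and *PDGFRB* fell under the minimum level in A549, and *PDGFRB* also in NCI-H23 and LN319, so 8 receptors were tested in A549, 9 in NCI-H23 and LN319 and 10 in LN229. *PDGFRB* was called by limma in 0 of the 4 comparisons in which it was tested, and in 0 of them was its unadjusted p under 0.05.

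**Figure D2:**
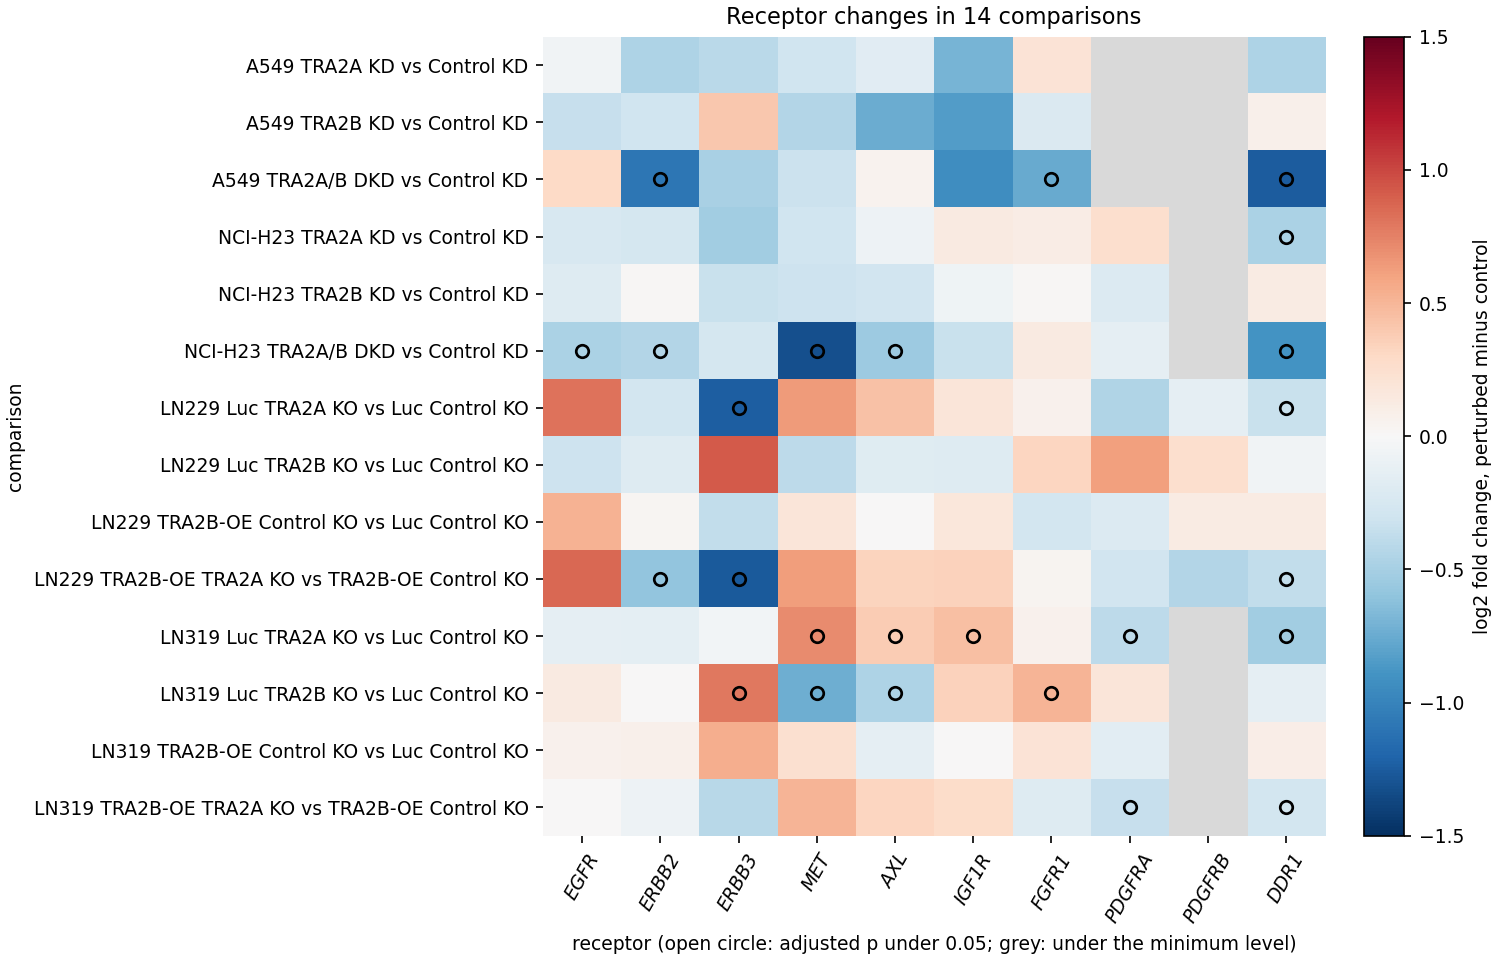
Log2 fold change (color, perturbed minus control) of each receptor (columns) in each of 14 comparisons (rows); open circles mark adjusted p under 0.05 by limma and grey cells receptors under the minimum level. *DDR1* is blue with a circle in 7 comparisons, each with *TRA2A* guides.

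In the lung lines single knockdown called few receptors. Upon *TRA2A* KD 0 receptors were called in A549 (0.213% of all genes were called; 2 receptors had an unadjusted p under 0.05) and 1 in NCI-H23 (0.976%), and upon *TRA2B* KD 0 in A549 (0.335%; 3 with an unadjusted p under 0.05) and 0 in NCI-H23 (0.196%; 1). Of all 16405 genes in A549, 1852 (*TRA2A* KD) and 2225 (*TRA2B* KD) had an unadjusted p under 0.05. In NCI-H23 *TRA2B* KD 1729 of 16293 did. Upon *TRA2A/B* DKD 3 of 8 receptors were called in A549 (37.5%, against 30.5% of all genes) and 5 of 9 in NCI-H23 (55.6%, against 43.2%). All of them fell, and 0 receptors rose by limma in either line. Among all genes called, 2392 rose and 2612 fell in A549, and 3252 rose and 3783 fell in NCI-H23. The shares called lie near those of all genes and so are no result about the receptors as a group. Whether the direction of the receptors differs from that of all genes was not tested. The median log2 fold change of the receptors tested was -0.62 in A549 and -0.44 in NCI-H23, where that of all genes was 0.04 and 0.02.

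In the glioma lines all calls in LN229 were lower than control, and both directions occurred in LN319 Luc cells. Upon *TRA2A* KO in Luc cells 2 of 10 receptors were called in LN229 (3.79% of all genes) and 5 of 9 in LN319 (14.3%), and in TRA2B-OE cells 3 of 10 in LN229 (6.05%) and 2 of 9 in LN319 (2.81%). *TRA2B* KO gave 0 calls in LN229 (0.557%; 2 receptors had an unadjusted p under 0.05), or 4 without replicate 1 of its control (*EGFR*, *ERBB3*, *MET* and *FGFR1*, with 20.7% of all genes called), and 4 of 9 in LN319, a share of 44.4% against 42.7% of all genes. *TRA2B* overexpression itself gave 0 calls in LN229 (1.03%; 2 with an unadjusted p under 0.05) and 0 in LN319 (4.30%; 3). Of all 18490 genes in LN229, 4308 (*TRA2B* KO) and 2638 (*TRA2B* overexpression) had an unadjusted p under 0.05. In LN319 4826 of 19303 did upon *TRA2B* overexpression. Comparisons within a line share control libraries, so their values are set side by side and not counted as independent of each other.

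*DDR1* encodes a receptor that is activated by collagen rather than by a soluble growth factor. In A549 it was measured at 38.3, 39.2 and 51.3 TPM in Control KD, 25.8, 28.2 and 30.0 TPM in *TRA2A* KD, and 21.0, 17.2 and 18.2 TPM in the DKD. *TRA2B* KD left it at 40.7, 43.4 and 42.6 TPM, within the range of the control, so all libraries with *TRA2A* guides were low and those with *TRA2B* guides alone were not. The log2 fold change was -1.25 ± 0.101 (SE) in the DKD (adjusted p = 9.16e-06), and -0.46 ± 0.101 with an adjusted p of 0.138 upon *TRA2A* KD. The DKD call was kept without replicate 3 of the control and under the other alternatives tried, 14 in all. In NCI-H23 it was measured at 38.7, 38.5 and 39.8 TPM in Control KD, 24.7, 31.0 and 27.7 TPM in *TRA2A* KD, 45.0, 45.9 and 46.6 TPM in *TRA2B* KD, and 22.8, 21.7 and 25.3 TPM in the DKD. The *TRA2A* KD and DKD libraries lay below all controls and the *TRA2B* KD libraries above them. *DDR1* fell by 0.48 on the log2 scale upon *TRA2A* KD (SE 0.0882, adjusted p = 0.0328) and by 0.90 in the DKD (adjusted p = 1.63e-05), while the *TRA2B* KD value was 0.12 (adjusted p = 0.668). The *TRA2A* KD call in NCI-H23 was lost without any 1 of 5 libraries, all but *TRA2A* KD replicate 2, and also when only these groups were fitted.

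**Figure D3:**
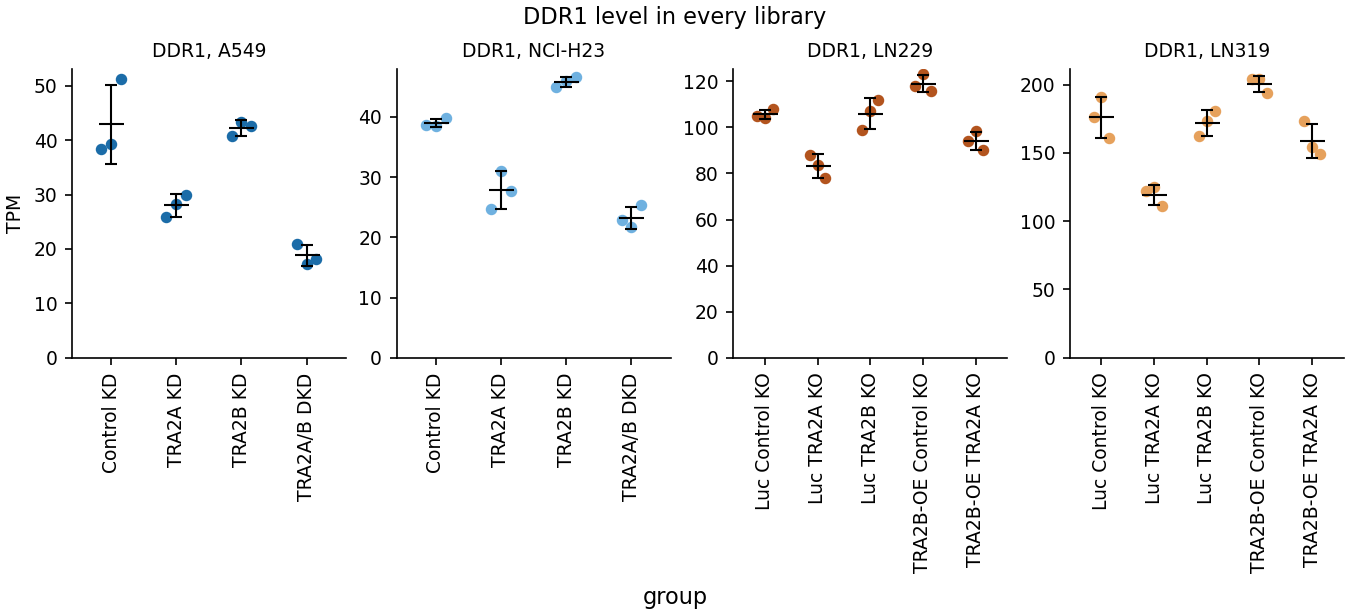
*DDR1* level in TPM (y axes start at 0) in every library of the 4 cell lines, by group; points are libraries, bars the mean and SD of 3. In every line the groups with *TRA2A* guides sit below their own control, for example 111 to 125 TPM in LN319 Luc *TRA2A* KO against 161 to 191 TPM in Luc Control KO.

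The glioma lines gave the same order for *DDR1* at higher levels. LN229 Luc cells had 105, 104 and 108 TPM in Control KO and 88.0, 83.8 and 78.0 TPM in *TRA2A* KO, and TRA2B-OE cells had 118, 123 and 116 TPM in Control KO and 94.1, 98.3 and 90.4 TPM in *TRA2A* KO. LN319 Luc cells had 176, 191 and 161 TPM in Control KO and 122, 125 and 111 TPM in *TRA2A* KO, and the TRA2B-OE cells had 204, 204 and 194 TPM and 173, 154 and 149 TPM. No library with *TRA2A* KO reached the lowest library of its own control. *DDR1* fell by 0.33 (adjusted p = 0.00974) and 0.37 (adjusted p = 0.00262) on the log2 scale in LN229 Luc and TRA2B-OE cells, and by 0.52 (adjusted p = 2.50e-04) and 0.28 (adjusted p = 0.0294) in LN319. The LN229 Luc call was lost without *TRA2A* KO replicate 3, without a filter on low genes, or when only these groups were fitted. Upon *TRA2B* KO the log2 fold change was -0.05 in LN229 (adjusted p = 0.575) and -0.14 in LN319 (95% CI -0.27 to -0.01, adjusted p = 0.0683), and the libraries overlapped the control in both. In TRA2B-OE Control KO, where *TRA2A* RNA fell too, all *DDR1* libraries lay above Luc control, with values of 0.12 in LN229 (adjusted p = 0.327) and 0.10 in LN319 (adjusted p = 0.297). In LN319 the *TRA2A* KO value in TRA2B-OE cells was lost with any 1 of its 6 libraries left out (adjusted p up to 0.146). The LN319 response in TRA2B-OE cells differed from that in Luc cells by 0.24 on the log2 scale (95% CI 0.06 to 0.42), which did not pass the test across genes (adjusted p = 0.495).

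*ERBB2*, the ERBB receptor with no known soluble ligand, lay lower in cells with *TRA2A* guides in 7 of 8 comparisons without overlap, in the TPM as deposited. The share of all genes without overlap was not counted. By the test *ERBB2* fell in 3 of them: the A549 DKD, the NCI-H23 DKD and LN229 TRA2B-OE *TRA2A* KO. Of all genes 30.5%, 43.2% and 6.05% were called there. *ERBB2* values follow for each. In A549 it went from 38.2, 34.0 and 56.1 TPM in Control KD to 23.8, 18.8 and 19.7 TPM in the DKD, with all DKD libraries below all controls and a log2 fold change of -1.08 ± 0.139 (adjusted p = 2.08e-04). NCI-H23 showed a smaller step, from 14.1, 12.8 and 13.8 TPM to 11.8, 10.6 and 11.1 TPM, again without overlap, with a log2 fold change of -0.44 ± 0.117 (adjusted p = 0.0111) that was lost without DKD replicate 3 or with the TPM as deposited. In LN229 TRA2B-OE cells *ERBB2* was measured at 66.7, 71.6 and 62.1 TPM in Control KO and 54.2, 43.0 and 40.0 TPM in *TRA2A* KO. These groups did not overlap either, and the log2 fold change was -0.59 ± 0.0959 (adjusted p = 0.00560), a call that was lost when only these groups were fitted (adjusted p = 0.0580). In LN229 Luc cells the value was -0.28 (adjusted p = 0.116), and the responses in TRA2B-OE and Luc cells differed by -0.31 (95% CI -0.60 to -0.02, adjusted p = 0.846).

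*ERBB3*, the neuregulin receptor, was low in controls of the lung lines, with 1.75 ± 0.833 TPM for A549 and 2.30 ± 0.436 TPM for NCI-H23, and was far higher in LN229. There the Luc libraries had 301, 143 and 155 TPM in Control KO, 116, 67.9 and 60.5 TPM in *TRA2A* KO and 341, 379.7 and 383 TPM in *TRA2B* KO, so the knockouts of the paralogs lay on opposite sides of the control, and replicate 1 of the control lay near the *TRA2B* KO. The log2 fold change upon *TRA2A* KO was -1.24 ± 0.309 (adjusted p = 0.0469) and upon *TRA2B* KO 0.92 ± 0.309 (adjusted p = 0.124). Without that control library the values were -0.91 (adjusted p = 0.162) and 1.26 (adjusted p = 0.0125), so both calls changed. The *TRA2A* KO call was lost under 7 of 14 alternatives. These included leaving out *TRA2A* KO replicate 2 or 3, no filter on low genes and the TPM as deposited. Quantile normalization and a fit of only these groups also ended it. TRA2B-OE cells had 236, 125 and 114 TPM in Control KO and 74.5, 59.8 and 59.0 TPM in *TRA2A* KO, without overlap, with a log2 fold change of -1.26 ± 0.309 (adjusted p = 0.0331) that was lost without any 1 of 5 libraries, all but Control KO replicate 3. The response to *TRA2A* KO differed between TRA2B-OE and Luc cells by -0.02 (95% CI -0.96 to 0.93), a wide interval.

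**Figure D4:**
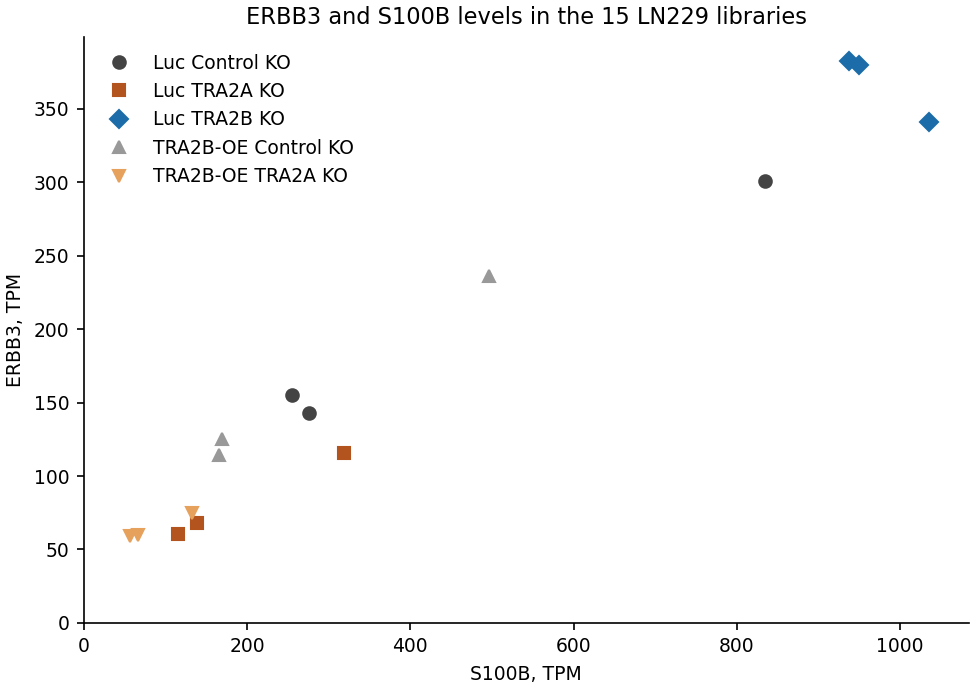
*ERBB3* level (y axis, TPM) against *S100B* level (x axis, TPM) in the 15 LN229 libraries, with symbols for the 5 groups; both axes start at 0. The libraries of high *ERBB3* are those of high *S100B*, including replicate 1 of both control groups.

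In these LN229 libraries the glial marker *S100B* moved with *ERBB3*. It ranged from 255 to 834 TPM in Luc Control KO, where replicate 1 was the highest, from 116 to 319 TPM in Luc *TRA2A* KO, from 937 to 1035 TPM in Luc *TRA2B* KO, from 165 to 496 TPM in TRA2B-OE Control KO and from 56.5 to 133 TPM in TRA2B-OE *TRA2A* KO. *SOX2*, another gene of neural progenitors and glioma, went from 77.4 to 90.8 TPM in Luc Control KO to 37.5 to 54.6 TPM in Luc *TRA2A* KO, and from 56.5 to 69.3 TPM to 20.4 to 30 TPM in TRA2B-OE cells, without overlap, but stood at 81.4 to 87.1 TPM in *TRA2B* KO, within the range of the control. *GFAP*, which defines astrocytes, was at most 5.17 TPM and *OLIG2* at most 14.2 TPM in LN229. Whether a change in the mix of cells had a part in the *ERBB3* values was not tested, and in bulk RNA fewer cells with a transcript and less of it per cell cannot be told apart. In LN319, where *ERBB3* was low, it was measured at 6.14, 6.21 and 4.73 TPM in Luc Control KO and 8.81, 13.4 and 10.2 TPM in *TRA2B* KO. The *TRA2B* KO libraries lay above all controls and *ERBB3* rose by 0.79 ± 0.211 on the log2 scale (adjusted p = 0.00893), while its value upon *TRA2A* KO was -0.04 (adjusted p = 0.927).

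*EGFR*, the receptor for EGF, TGF-alpha and amphiregulin, was called once. In NCI-H23 it went from 19.0, 19.6 and 21.2 TPM in Control KD to 12.9, 17.2 and 18.2 TPM in the DKD, without overlap, and fell by 0.48 on the log2 scale (SE 0.132, adjusted p = 0.0132). With the TPM as deposited the call was lost (adjusted p = 0.0671). A549 had 54.5, 57.4 and 103 TPM in Control KD and 95.1, 93.2 and 77.5 TPM in the DKD, where the high control library made the groups overlap. The value was 0.30 (adjusted p = 0.176) with all libraries and 0.51 (adjusted p = 0.00284) without Control KD replicate 3. In LN229 the libraries of Luc *TRA2A* KO (20.4, 23.9 and 28.0 TPM) lay above those of Control KO (8.36, 16.5 and 18.3 TPM), and those of TRA2B-OE *TRA2A* KO (33.3, 41.9 and 38.4 TPM) above their control (14.8, 24.3 and 23.2 TPM). These log2 fold changes, 0.82 (adjusted p = 0.0991) and 0.86 (adjusted p = 0.0770), did not pass the test.

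*MET*, the receptor for hepatocyte growth factor, and *AXL*, the receptor for GAS6, went in opposite directions upon knockout of the paralogs in LN319. *MET* was measured there at 31.3, 37.4 and 29.5 TPM in Luc Control KO, 54.5, 51.2 and 49.9 TPM in *TRA2A* KO and 20.5, 24.2 and 18.9 TPM in *TRA2B* KO. All libraries of *TRA2A* KO were above, and all of *TRA2B* KO below, every control. *MET* rose by 0.71 ± 0.161 on the log2 scale upon *TRA2A* KO (adjusted p = 0.0117) and fell by 0.73 upon *TRA2B* KO (SE 0.161, adjusted p = 0.00294). *AXL* was measured at 54.8, 63.0 and 59.4 TPM in the control, 71.0, 71.8 and 81.0 TPM in *TRA2A* KO and 45.0, 47.7 and 45.6 TPM in *TRA2B* KO, with the groups in the same order and without overlap. It rose by 0.38 ± 0.0972 (adjusted p = 0.0217) and fell by 0.46 (SE 0.0972, adjusted p = 0.00211), and the rise was not called without Control KO replicate 1 or *TRA2A* KO replicate 3. In TRA2B-OE cells the *TRA2A* KO values were 0.51 for *MET* (adjusted p = 0.116) and 0.32 for *AXL* (adjusted p = 0.104), with overlapping libraries.

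**Figure D5:**
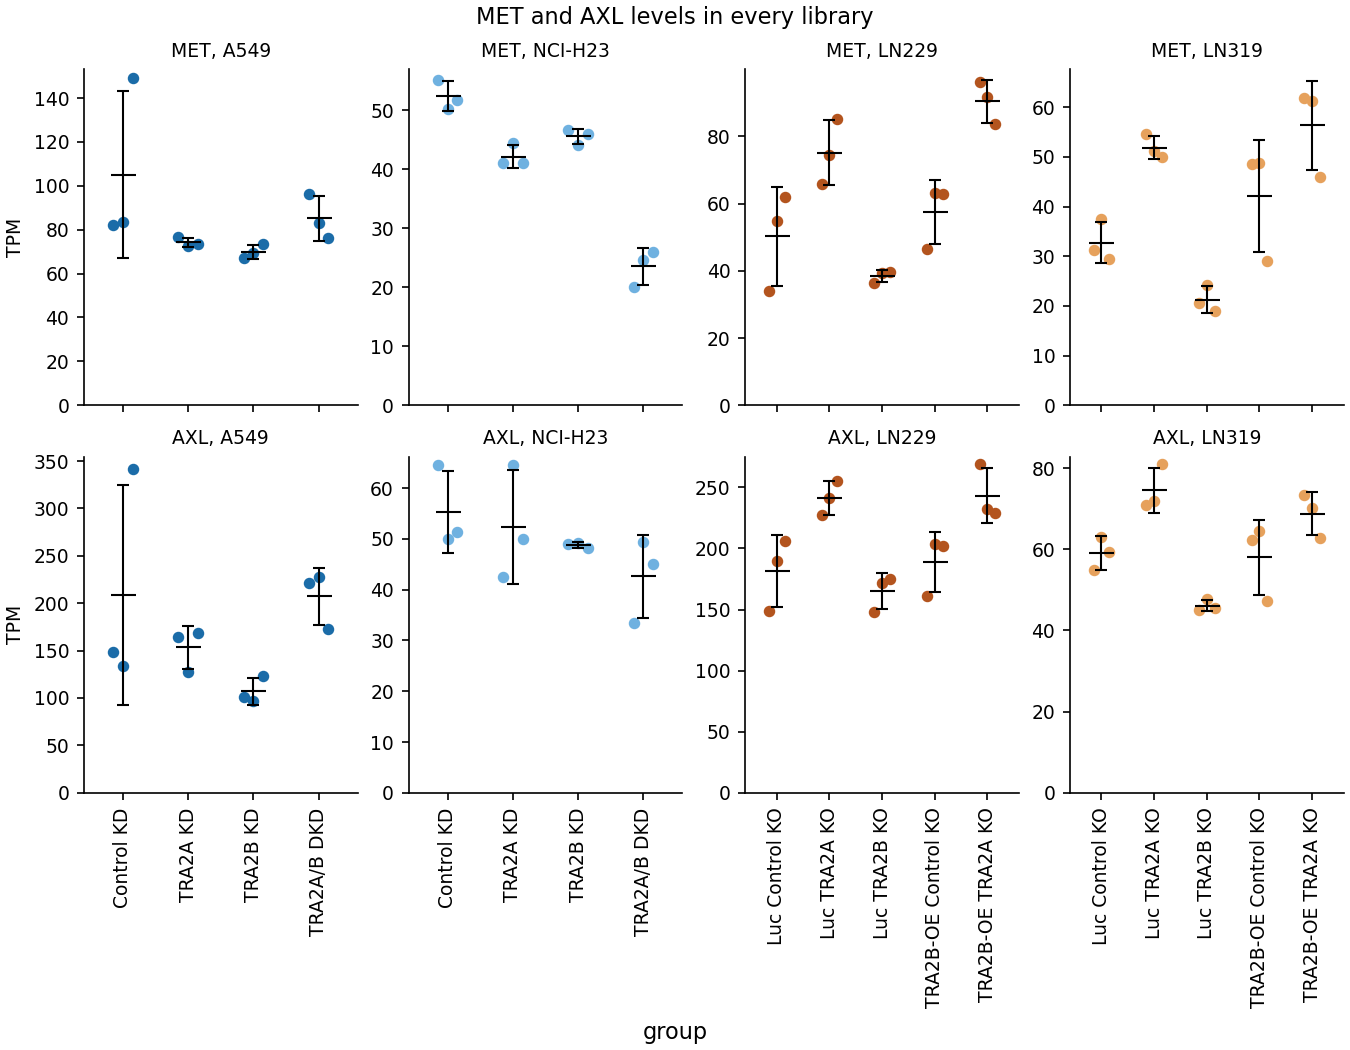
*MET* (upper panels) and *AXL* (lower panels) levels in TPM in every library of the 4 cell lines, by group, with axes from 0; points are libraries, bars the mean and SD of 3. In NCI-H23 the DKD libraries of *MET* sit at 20.0 to 25.9 TPM against 50.2 to 55.2 TPM in Control KD, and in LN319 both genes sit above control in *TRA2A* KO and below it in *TRA2B* KO.

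In the lung lines loss of both paralogs left *MET* and *AXL* lower or overlapping. NCI-H23 had *MET* at 55.2, 50.2 and 51.7 TPM in Control KD, 41.0, 44.5 and 41.0 TPM in *TRA2A* KD, 46.6, 44.2 and 45.9 TPM in *TRA2B* KD and 20.0, 24.7 and 25.9 TPM in the DKD. Every perturbed library lay below every control, and the DKD libraries were the lowest. Only the DKD value passed the test, at -1.32 ± 0.104 (adjusted p = 3.59e-06), while the single knockdowns gave -0.30 (adjusted p = 0.232) and -0.31 (adjusted p = 0.346). *AXL* fell by 0.54 in the DKD (SE 0.193, adjusted p = 0.0427), a call that was lost under 9 of 14 alternatives. In A549 the DKD values were -0.32 for *MET* (adjusted p = 0.137) and 0.05 for *AXL* (adjusted p = 0.910). *AXL* had 149, 134 and 342 TPM in Control KD there and 221, 228 and 173 TPM in the DKD. Its groups overlapped only through replicate 3 of the control. In LN229 both genes lay above control in every library of *TRA2A* KO, in Luc and in TRA2B-OE cells, but their log2 fold changes of 0.33 to 0.64 had adjusted p of 0.0675 to 0.130. In cells with *TRA2A* guides all libraries of *MET* lay above control in both LN229 comparisons and in LN319 Luc cells, and below control in both lung lines upon *TRA2A* KD. The difference between lines was not tested.

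*FGFR1*, a receptor for fibroblast growth factors, fell in A549 and rose in LN319. Its A549 libraries had 92.3, 102 and 115 TPM in Control KD, 96.1, 109.9 and 113 TPM in *TRA2A* KD, 76.2, 83.5 and 88.8 TPM in *TRA2B* KD and 70.4, 57.5 and 63.5 TPM in the DKD. The DKD libraries were lowest and did not overlap the control, with a log2 fold change of -0.76 ± 0.0990 (adjusted p = 2.40e-04). In NCI-H23 the DKD libraries lay above the control, at 37.0, 33.6 and 35.6 TPM against 30.1, 30.9 and 26.1 TPM, with a log2 fold change of 0.13 (adjusted p = 0.274). With the TPM as deposited, where the median of all genes shifted by 0.17, the value was 0.29 (adjusted p = 0.0288). LN319 had 26.7, 36.1 and 28.8 TPM in Luc Control KO and 43.8, 47.5 and 48.5 TPM in *TRA2B* KO, without overlap. *FGFR1* rose by 0.51 ± 0.0925 on the log2 scale there (adjusted p = 8.56e-04), and its value upon *TRA2A* KO was 0.07 (adjusted p = 0.674). The LN229 value upon *TRA2B* KO was 0.32 (adjusted p = 0.104), or 0.45 (adjusted p = 0.00483) without Control KO replicate 1.

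*PDGFRA* was at a level that allows a precise test only in LN319. It was measured at 168, 196 and 174 TPM in Luc Control KO and 139, 134 and 126 TPM in *TRA2A* KO, and at 168, 168 and 176 TPM and 125, 124 and 138 TPM in TRA2B-OE cells. The *TRA2A* KO libraries lay below their controls in both. *PDGFRA* fell by 0.39 (SE 0.0696, adjusted p = 0.00314) in Luc cells and by 0.34 (adjusted p = 0.0255) in TRA2B-OE cells, and the responses differed by 0.04 (95% CI -0.17 to 0.25). The TRA2B-OE call was lost without Control KO replicate 3 or *TRA2A* KO replicate 1 or 2. Upon *TRA2B* KO the libraries lay above control, at 218, 216 and 221 TPM, with a value of 0.18 (adjusted p = 0.0575). *IGF1R*, the receptor for insulin-like growth factors, rose by 0.45 ± 0.137 upon *TRA2A* KO in LN319 (adjusted p = 0.0464), from 33.3, 39.4 and 42.4 TPM to 54.7, 45.6 and 51.8 TPM, a call that was lost under 7 of 14 alternatives. *TRA2B* KO left *IGF1R* at 52.7, 53.6 and 50.8 TPM (0.34, adjusted p = 0.0588), also above all controls. *PDGFRB* stayed under 1.1 TPM in all libraries of LN319 and under 1 TPM in both lung lines.

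Whether the double knockdown went beyond the sum of both single ones was tested as the DKD response minus both single responses. In A549 *DDR1* differed by -0.87 (95% CI -1.18 to -0.55, adjusted p = 0.00311) and *FGFR1* by -0.73 (95% CI -1.04 to -0.43, adjusted p = 0.00674), 2 of 8 receptors where 14.7% of all genes were called. NCI-H23 gave 2 of 9, where 21.0% of all genes were called: *MET* at -0.71 (95% CI -1.03 to -0.38, adjusted p = 0.00653) and *DDR1* at -0.54 (95% CI -0.81 to -0.26, adjusted p = 0.0112). *DDR1* thus fell further than the sum of its single knockdowns in both lung lines. Both A549 calls were lost with the TPM as deposited (adjusted p of 0.0636 and 0.0959), where the median of all genes shifted by 0.26 and *EGFR* was the receptor called (0.99, adjusted p = 0.0408). The response to *TRA2A* KO did not pass the test of a difference between TRA2B-OE and Luc cells for any receptor, with 0 called in LN229 (0% of all genes; 1 receptor had an unadjusted p under 0.05) and 0 in LN319 (0.0207%; 1). Of all genes 1068 of 18490 in LN229 and 1530 of 19303 in LN319 had an unadjusted p under 0.05 in this test.

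Other genes of the pathway changed in both directions. Of 27 further receptor tyrosine kinases, 14 were tested in A549, of which 1 rose and 6 fell in the DKD (30.5% of all genes were called), led by *NTRK3* (-2.36, adjusted p = 2.00e-05), *FGFR4* (-1.29) and *PTK7* (-1.21). In the NCI-H23 DKD 2 of 15 rose and 5 fell, near the 43.2% of all genes called, led by *TYRO3* (-1.55) and *KIT* (-1.45), which fell, and *MERTK* (1.06), which rose. Among 22 ligands *HBEGF*, a ligand of EGFR, rose by 2.13 on the log2 scale in the A549 DKD (adjusted p = 2.20e-06), where 6 of 18 rose and 6 fell, *PROS1* (-1.32) and *IGF2* (-1.26) among the latter. *HGF*, the ligand of MET, fell by 2.61 in the NCI-H23 DKD (adjusted p = 3.00e-08), the line and condition in which *MET* fell most, while *AREG* rose by 1.71 and *FGF5* fell by 1.49. Of 24 adaptors and regulators 4 rose and 5 fell in the A549 DKD, among them *IRS2* (1.13), *ERRFI1* (1.12) and *LRIG1* (-1.17), and 6 of 23 rose and 4 fell in NCI-H23, among them *PLCG1* (-1.20), *PIK3CA* (1.03, with overlapping libraries) and *SOS1* (-0.85). Tested as the DKD minus both single responses, *NTRK3* (-2.63), *FGFR3* (-2.0), *FGFR4* (-1.54), *PDGFB* (-2.91), *HBEGF* (2.03), *COL4A1* (-1.35), *IRS2* (1.57) and *ERRFI1* (0.84) led in A549. In NCI-H23 *KIT* (-1.73), *TYRO3* (-1.21), *FGFR4* (-1.12), *HGF* (-2.40), *AREG* (0.85), *PLCG1* (-0.94), *PIK3R1* (0.92) and *GRB2* (0.45) led. The single knockdowns of both lung lines called 0 genes of these lists by limma, where 1 to 4 genes of each list had an unadjusted p under 0.05. In LN229 the *TRA2B* KO and *TRA2B* overexpression also called 0, with 1 to 7 genes of each list at an unadjusted p under 0.05, as did the test of a difference between TRA2B-OE and Luc cells in both glioma lines, with 0 to 4. Many of all genes also had an unadjusted p under 0.05: 1729 to 2225 of 16293 or 16405 in the lung single knockdowns. In LN229 4308 (*TRA2B* KO) and 2638 (*TRA2B* overexpression) of 18490 did. In the tests of a difference 1068 of 18490 (LN229) and 1530 of 19303 (LN319) did.

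In LN229 upon *TRA2A* KO 6 of 18 ligands rose and 0 fell in Luc cells (3.79% of all genes were called, 363 up and 338 down), and 4 rose and 2 fell in TRA2B-OE cells (6.05%, 402 up and 717 down). The Luc ligands were led by *NRG1*, the neuregulin that binds ERBB3, at 1.46 (adjusted p = 0.0408), *PDGFB* (1.05) and *EGF* (0.73). Among other receptors *FGFR3* fell in Luc and TRA2B-OE cells (-0.72 and -0.78), as did *FLT1* (-0.51 and -0.75), while *EPHA2* (0.48) rose in Luc cells and *ROR1* (0.55) in TRA2B-OE cells. *IRS1* rose in both (0.76 and 0.77), as did *ERRFI1* (0.28 and 0.27), and *RASA1* (0.50), *HBEGF* (0.83), *PROS1* (-0.87) and *TGFA* (-0.61) changed in TRA2B-OE cells. In LN319 Luc *TRA2A* KO 5 of 16 ligands rose and 4 fell (14.3% of all genes were called), among them *IGF1* (-1.61), *EREG* (1.19) and *PROS1* (-0.79), with *FGFR2* (-0.64), *EPHA2* (0.43), *EPHB2* (0.40), *GAB1* (-0.87), *LRIG1* (-0.45) and *FRS2* (0.34) among receptors and adaptors. Upon *TRA2B* KO, where 42.7% of all genes were called (3569 up and 4671 down), 1 of 16 ligands rose and 9 fell, led by *FGF1* (-1.61), *IGF1* (-1.19) and *TGFA* (-0.92), and 7 of 21 other receptors rose and 5 fell, led by *MERTK* (1.15), *KIT* (-0.86) and *DDR2* (0.83), the second collagen receptor. The adaptors *LRIG3* (0.53), *GRB2* (-0.47) and *PLCG1* (0.47) led their list there, in which 3 of 23 rose and 8 fell. *TRA2B* overexpression in LN319 raised *COL1A1* (1.67, adjusted p = 3.77e-08), a collagen that binds DDR1, and *GAS6* (1.58, adjusted p = 6.92e-05), the ligand of AXL, with *MERTK* (-0.70), *KIT* (0.63), *IRS2* (0.37) and *CRKL* (-0.19) also called. In TRA2B-OE cells of LN319 *EREG* (0.89), *EPHB2* (0.49), *EPHA2* (0.41) and *SHC1* (0.24) rose upon *TRA2A* KO.

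Over the 14 log2 fold changes, which share controls within each line and so are not independent, the receptor most like *DDR1* was *ERBB2* (Pearson r = 0.822), and the one most like *MET* was *AXL* (r = 0.864). *ERBB3* went least with *AXL* (r = -0.613). Among 13362 genes kept in all 4 lines, those most like *DDR1* were *RIPK1*, *CACNB1* and *MFN1* (r = 0.920 to 0.930), those most like *MET* were *NUFIP1*, *RDH10* and *BMS1* (r = 0.923 to 0.931), and those most like *ERBB3* were *CSAD*, *PLEKHH1* and *KAT2B* (r = 0.858 to 0.883). For *ERBB2* they were *PPIL2*, *EXOSC10* and *MUM1* (r = 0.900 to 0.917), for *EGFR* *MTMR1*, *PIK3CD* and *USP36* (r = 0.921 to 0.937), and for *AXL* *AP1B1*, *DDX21* and *RPP14* (r = 0.909 to 0.920). For *IGF1R* they were *NT5DC3*, RP11-795F19.5 and *NBPF9* (r = 0.941 to 0.953), and for *FGFR1* *CENPJ*, *CABIN1* and *AQR* (r = 0.848 to 0.855).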

How the data were processed

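Poly(A)-selected libraries of 54 samples were used. Per the labels the submitters' processing used kallisto 0.48.0 and STAR 2.7.3 on GRCh38; the study's methods name Gencode v34, which was not settled from the tables. The authors deposited TPM per gene symbol, not scaled between libraries. TPM keeps no depth, so the error given is the spread of replicates. The receptors and gene lists were chosen with earlier results of these data known.

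Every line had its own limma model (limma 3.58.1, R 4.3.3; trend, two-sided) holding all its libraries. Genes had to reach 1 TPM in 4 libraries. Values were scaled by a TMM without weights (trims 30% and 5%) and taken as log2(TPM + 0.1), on which folds of low genes are understated. Levels and percents are of the TPM as deposited. Named were all receptors, *TRA2A* and *TRA2B*, up to 3 called genes of largest fold change per list and comparison, and the 3 genes most alike to each receptor. *EGFR* overlaps *EGFR-AS1*, and *ERBB2* overlaps *PGAP3* and *MIEN1*; the strand setting of the quantification is not given in the sources used here. Tested on simulated data, the fit recovered 80.2% of 187 genes changed 4-fold among 15880 in the A549 DKD. The receptor changes called here were smaller than 4-fold, and recovery of changes of their size was not tested. Positions and coding sequences came from Gencode v44 (Python 3.11.15, matplotlib 3.10.9).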

Additional observations from a re-analysis of the deposited data

Results flagged for a closer look

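In the double knockdowns 4 receptor responses differed from the sum of the single knockdowns by a test of that difference. They were *FGFR1* (-0.73) and *DDR1* (-0.87) in A549, and *MET* (-0.71) and *DDR1* (-0.54) in NCI-H23. The values are the log2 response of the *TRA2A/B* DKD minus both single responses. These calls made up 25.0% of the receptors tested in A549, against 14.7% of all genes, and 22.2% in NCI-H23, against 21.0%. Both A549 calls were lost with the TPM as deposited. In the TPM as deposited *FGFR1* also lay on opposite sides of its control in the lung lines. Every DKD library was below every control in A549 and above every control in NCI-H23. The limma values after scaling were -0.76 in A549 and 0.13 in NCI-H23 (adjusted p = 0.274). In the NCI-H23 TPM as deposited the median of all genes shifted by 0.17. The difference in *FGFR1* between lines was not tested.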

How the results depend on the processing

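The receptor values called were recomputed with no filter or one at 5 TPM, with pseudocounts of 0.5 and 1, the TPM as deposited, quantile normalization, the replicate number as a block, only the groups compared, and each library left out. Of these recomputed values 369 kept their direction and passed the test, 61 kept their direction without passing it, and 0 reversed. The TPM as deposited gave 1 call (*EGFR*) for the A549 DKD minus both single knockdowns, 3 for the NCI-H23 DKD and 1 for LN229 Luc *TRA2A* KO. Quantile normalization gave 1 for LN229 Luc *TRA2A* KO and 7 for LN319 *TRA2B* KO. Without a filter there were 0 calls for LN229 Luc *TRA2A* KO, 3 for LN319 Luc *TRA2A* KO and 1 for LN319 TRA2B-OE *TRA2A* KO. Fitting only the groups compared left 0 for NCI-H23 *TRA2A* KD, LN229 Luc *TRA2A* KO and LN319 TRA2B-OE *TRA2A* KO, and 1 for LN229 TRA2B-OE *TRA2A* KO; these fits hold fewer samples. A minimum absolute log2 fold change of 1 left 1 call each for the NCI-H23 DKD (*MET*) and both LN229 *TRA2A* KO comparisons (*ERBB3*), and 0 for both differences from the single knockdowns, NCI-H23 *TRA2A* KD, LN319 *TRA2B* KO and both LN319 *TRA2A* KO comparisons. The cause of the other shifts was not tested.

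The replicate numbers were not shown to pair the samples: correlations of same-numbered deviations ranged from -0.154 to 0.212, and in 0 of 14 comparisons were all 3 above 0.1. With the replicate block there were 0 calls for NCI-H23 *TRA2A* KD, 5 for LN229 Luc *TRA2A* KO, 1 for LN229 *TRA2B* KO and 5 for LN229 TRA2B-OE *TRA2A* KO, and the other counts stayed within 1.5 times. The receptors gained were *EGFR* (adjusted p = 0.0133), *MET* (0.0274) and *AXL* (0.0264) in LN229 Luc *TRA2A* KO, *EGFR* (0.00909) and *MET* (0.0246) in LN229 TRA2B-OE *TRA2A* KO, and *ERBB3* (0.0322) in LN229 *TRA2B* KO. Replicate 1 had the highest *S100B* in 5 of 5 LN229 groups and the highest *ERBB3* in 4 of 5. It also had the lowest *EGFR* in every LN229 group.

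With 1 library left out the counts ranged from 3 to 4 (A549 DKD), 2 to 4 (its difference from the single knockdowns), 0 to 1 (NCI-H23 *TRA2A* KD), 3 to 5 (NCI-H23 DKD, 3 without DKD replicate 3), 0 to 3 (LN229 Luc *TRA2A* KO, 0 without *TRA2A* KO replicate 3), 0 to 4 (LN229 *TRA2B* KO, 4 without Luc Control KO replicate 1, when 20.7% of all genes were called), 2 to 3 (LN229 TRA2B-OE *TRA2A* KO), 3 to 5 (LN319 Luc *TRA2A* KO, 3 without Control KO replicate 1 or *TRA2A* KO replicate 3), 4 to 6 (LN319 *TRA2B* KO), 0 to 1 (LN319 TRA2B-OE against Luc) and 0 to 1 (LN319 TRA2B-OE *TRA2A* KO). TPM gives no depth, so small differences in low receptors such as *PDGFRB* could not be resolved beyond the replicate spread.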
